A study of Mus musculus with 15 samples.

Results

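The Frizzled receptors are the 10 genes Fzd1 to Fzd10, picked by symbol from a table of 24264 genes measured by RNA-seq in the embryonic mouse brain. All 10 had a row in the table, and 8 of them passed the filter on low values, which asked for 3 or more libraries with 1 RPKM or more. The remaining members, Fzd4 and Fzd5, were tested only with the filter left off. RPKM counts the reads of a gene scaled by the length of its model and by the mapped reads of the library. This is meant to put genes and libraries on a common scale. Summed over all genes, RPKM was 489420 in alar plate 3 and 374280 to 390992 in the other libraries. In alar plate 3 the values shifted with gene length, as given with Fzd3. The other libraries were not checked for such a shift.

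Frizzled proteins span the cell membrane and bind secreted Wnt proteins through a cysteine-rich domain outside the cell. With the co-receptors Lrp5 and Lrp6 they stabilise β-catenin, which then switches on target genes such as Axin2. With other partners they orient cells and axons within a tissue, a function called planar cell polarity. In the embryonic brain Wnt signals pattern the dorsal midline and the boundary between midbrain and hindbrain, and they guide the birth of midbrain dopamine neurons.

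The tissue came from C57bl/6 embryos at E12.5, mid-gestation, and every embryo carried green fluorescent protein under the promoter of Th, the enzyme that begins dopamine synthesis. There were 15 libraries, 3 each from hindbrain, forebrain, alar plate, dorsal midbrain and ventral midbrain, and no group was treated. The labels do not place the alar plate samples along the brain, so these may adjoin or overlap the dorsal midbrain or forebrain samples. Nor do they say whether the 3 samples of a region are from different embryos. The p-values therefore describe the spread among the samples at hand, part of which may be technical. Each region is a mixture of cell types, and in such tissue fewer cells of a type and less RNA per cell cannot be told apart.

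Library depth, recovered from the deposited values, ran from 8681707 to 13119299 reads in gene models. Among libraries of a region the correlation of log2(RPKM + 1) was at least 0.984, except for 3 libraries: alar plate 3 (0.925 to 0.927), dorsal midbrain 3 (0.967 to 0.971) and forebrain 1 (0.960 to 0.964). Th marked the ventral midbrain at 76.0 ± 6.54 RPKM (SD, n = 3). Pax7 had its highest mean in dorsal midbrain, at 31.9 ± 11.9, but did not set that region apart. Its level in dorsal midbrain 3 was 18.3 RPKM, against 19.6 in alar plate 2 and 15.5 in hindbrain 1. Pax3 did set it apart, at 42.4, 40.1 and 31.0 RPKM in dorsal midbrain. The highest Pax3 level outside that region was 16.3 RPKM, in alar plate 2. Six3, a forebrain and eye field factor, was at 14.3 ± 6.22 in forebrain and 16.1 ± 6.37 in alar plate. Dorsal midbrain 3 had Six3 at 5.50 RPKM against 0 and 0.0431 in the other dorsal midbrain libraries. In hindbrain 1, Hoxa2 was at 0.107 RPKM and Hoxb2 at 0, while hindbrain 2 and 3 had Hoxa2 at 11.1 and 6.24.

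Summed over the 10 members, Frizzled transcript was highest in dorsal midbrain, at 197 ± 32.9 RPKM, and lowest in hindbrain, at 78.9 ± 8.67. Alar plate had 142 ± 27.5 RPKM, forebrain 108 ± 18.2 and ventral midbrain 98.9 ± 2.65. The sum ran from 71.5 RPKM in hindbrain 2 to 216 RPKM in dorsal midbrain 1, and the dorsal midbrain and alar plate ranges overlapped. The member with the largest part of this sum differed between regions: Fzd3 in ventral midbrain (36.2 to 39.8% of the sum) and hindbrain (40.3 to 43.2%), Fzd10 in dorsal midbrain (32.9 to 53.1%), and Fzd1 in alar plate (34.4 to 46.2%) and forebrain (36.7 to 43.9%). Fzd1 and Fzd3 were large parts everywhere, while Fzd4 made up at most 1.01% and Fzd5 at most 0.255%.

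**Figure D1:**
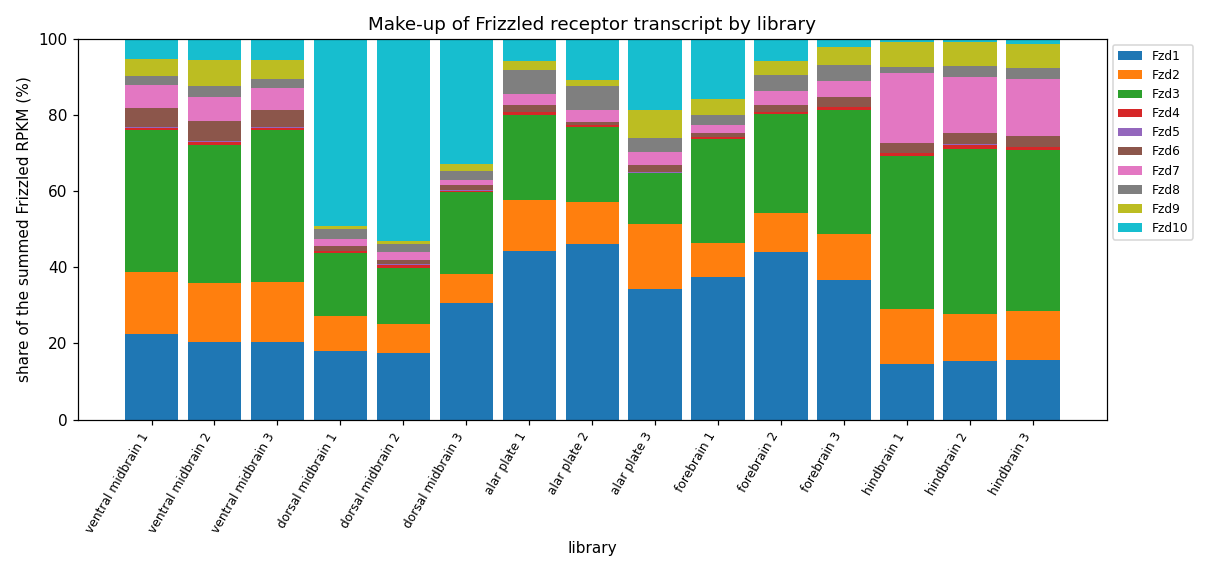
Share of the summed Frizzled RPKM (vertical axis, %) taken by each of the 10 genes in each of the 15 libraries (horizontal axis). Fzd10 takes 32.9 to 53.1% in the dorsal midbrain libraries and at most 1.40% in the hindbrain libraries, where Fzd3 leads with 40.3 to 43.2%.

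To find which receptors varied by region, all 13745 genes that passed the filter were fitted with limma on log2(RPKM + 1). Across the 5 regions 6 of the 8 tested members differed at a Benjamini-Hochberg adjusted p under 0.05, when 33.7% of all genes tested did. These were Fzd1 (adjusted p = 7.29e-05), Fzd10 (0.00011), Fzd7 (0.000603), Fzd6 (0.00152), Fzd8 (0.00365) and Fzd2 (0.00548). Fzd9 (0.0616) and Fzd3 (0.316) did not pass. Each region was then set against the unweighted mean of the other 4, and each of the 10 pairs of regions was compared. All differences given are of log2(RPKM + 1), so the change of a gene near or under 1 RPKM comes out too small. The 5 region comparisons and the 10 pairs use the same libraries, so a member that is far off in 1 region shifts its other comparisons too.

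**Figure D2:**
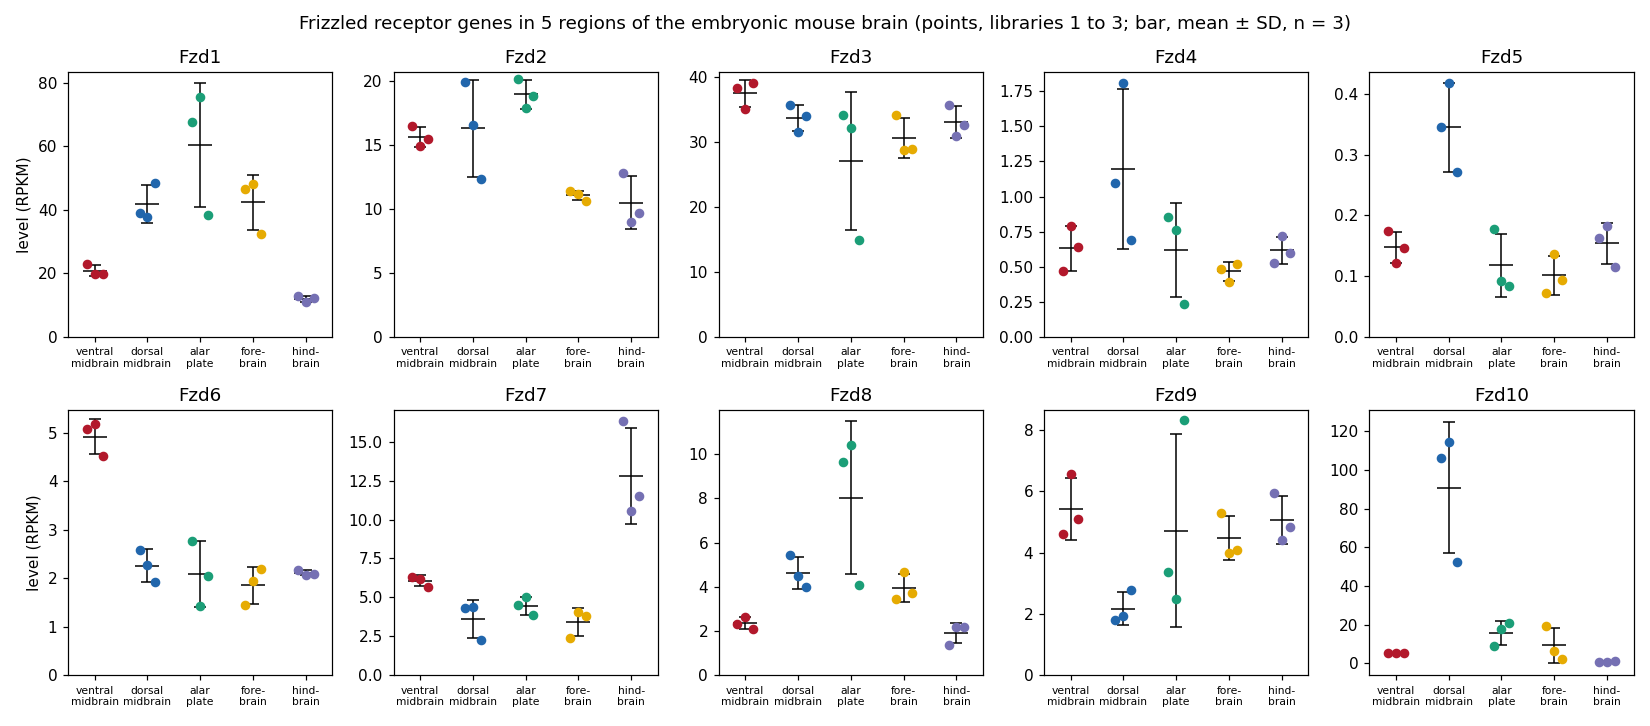
Level of each Frizzled gene (RPKM, vertical axis, a scale of its own in each panel) in the 5 regions (horizontal axis). Points are libraries 1 to 3 from left to right, and bars give the mean ± SD (n = 3). The dorsal midbrain points of Fzd10, the ventral midbrain points of Fzd6 and the hindbrain points of Fzd7 lie above all others in their panels.

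**Figure D3:**
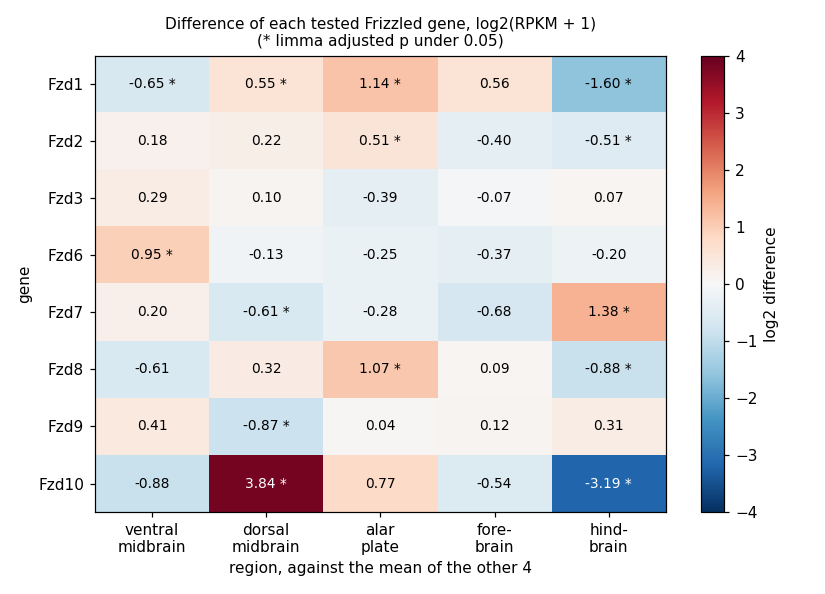
Difference of each tested Frizzled gene (rows) in each region (columns) from the mean of the other 4, in log2(RPKM + 1). Red is higher, blue is lower, and an asterisk marks a limma adjusted p under 0.05. The range runs from -3.19 for Fzd10 in hindbrain to 3.84 for Fzd10 in dorsal midbrain, and no cell of the forebrain column has an asterisk.

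Fzd10 had the widest range of any member, 116-fold between its highest and lowest regional mean. It belongs with Fzd4 and Fzd9 to a branch of the family, and is known for activating β-catenin signalling in the dorsal neural tube. In dorsal midbrain 1, 2 and 3 it stood at 106, 114 and 52.2 RPKM. Alar plate had 8.99, 17.7 and 20.6 RPKM, and forebrain had 19.6, 6.37 and 2.0. Ventral midbrain held 5.28, 5.50 and 5.33 RPKM, whereas hindbrain held 0.616, 0.663 and 1.08, from 20 to 41 reads a library. Every dorsal midbrain library thus lay above every other library, every hindbrain library lay below every other, and alar plate overlapped forebrain.

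In dorsal midbrain the mean of Fzd10 was 91.0 ± 33.8 RPKM (SD, n = 3) against 7.81 over the other 4 regions, an 11.7-fold ratio. The log2 difference was 3.84 ± 0.42 (SE, limma adjusted p = 0.00013). In hindbrain the mean was 0.785 ± 0.253 RPKM against 30.4, with a log2 difference of -3.19 ± 0.42 (adjusted p = 0.000456). Both calls held without any single library and without the 3 libraries that stand apart, where the dorsal midbrain difference was 4.42 and the hindbrain difference -3.04. Between neighbours in the order of levels, dorsal midbrain exceeded alar plate by 2.45 ± 0.53 (adjusted p = 0.0435). That call was lost in 15 of 24 alternatives, among them leaving out dorsal midbrain 1 (adjusted p = 0.207), dorsal midbrain 2 (0.18), alar plate 1 (0.0528), alar plate 2 (0.0938), any ventral midbrain or hindbrain library, or forebrain 2 (0.0612). It was kept without the 3 libraries that stand apart (3.03, adjusted p = 0.000202). For this pair 39.2% of all genes were then called, against 1.67% with all libraries. The libraries left out hold the lowest dorsal midbrain and the highest alar plate value of Fzd10, so that fit adds no separate support. Alar plate and forebrain (adjusted p = 0.237), forebrain and ventral midbrain (0.88) and ventral midbrain and hindbrain (0.0833) were not told apart by the test.

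The gene whose profile was most like that of Fzd10 over the 15 libraries was Axin2, the feedback inhibitor that β-catenin switches on, with a Pearson r of 0.976 on the log2(RPKM + 1) scale. Psme3, a proteasome activator subunit, followed at 0.961, and Zfand4 at 0.960. The libraries share their regions, so these values are descriptions. Axin2 was at 38.4, 44.1 and 30 RPKM in dorsal midbrain and at 4.89, 5.33 and 5.51 in hindbrain. In forebrain 1, where Fzd10 was at 19.6 RPKM, Axin2 was also the highest of its region, at 19.4 against 9.06 and 7.90. Alar plate 3 likewise led its region in both genes, with Axin2 at 16.7 RPKM against 9.42 and 11.4.

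Other groups of genes also had their highest mean sum in dorsal midbrain. The summed RPKM of 10 cell division genes was 664, 583 and 299 in dorsal midbrain, and 10 of 10 were higher there than in the other 4 regions, when 18.2% of all genes were. The lowest sum of the region was in dorsal midbrain 3, which also had its lowest Fzd10. The cell division sum was 243, 234 and 453 in alar plate and 292, 88.0 and 106 in forebrain. It was 139 to 211 in ventral midbrain and 112 to 190 in hindbrain. Alar plate 3 and forebrain 1, which led their regions in Fzd10 and Axin2, thus led them in this sum too. For 10 meningeal genes, which mark the membranes around the brain, the sum was 129, 135 and 74.0 RPKM in dorsal midbrain, with 8 of 10 higher (again beside 18.2% of all genes), and at most 25.2 in ventral midbrain, forebrain and hindbrain. Col1a1, a defining collagen of these membranes, was at 18.4 ± 6.33 RPKM in dorsal midbrain and at most 0.747 in each ventral midbrain and hindbrain library. Alar plate 1 had the highest meningeal sum of all, 174 RPKM, with Fzd10 at 8.99, while alar plate 2 had a sum of 14.9 with Fzd10 at 17.7. The part of cell division and of meningeal tissue in the Fzd10 difference was not tested.

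**Figure D4:**
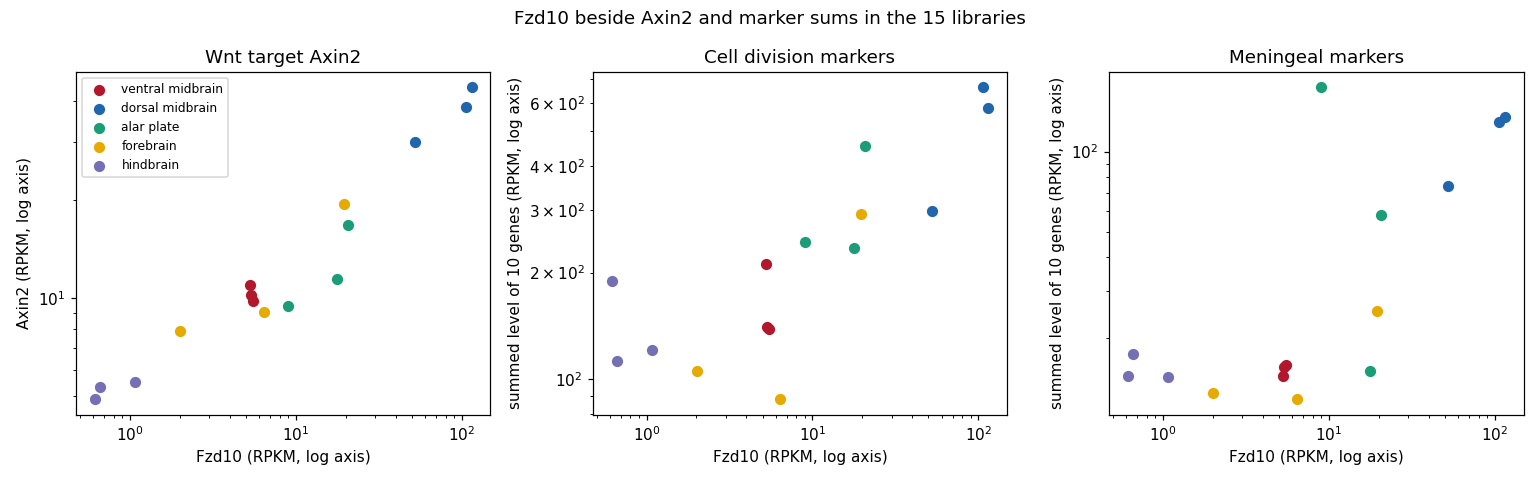
Level of Fzd10 (horizontal axes, RPKM, log scale) beside Axin2 (left), the summed level of 10 cell division genes (middle) and that of 10 meningeal genes (right; vertical axes, RPKM, log scale). Each point is 1 of the 15 libraries, coloured by region. Dorsal midbrain lies at the right in each panel. In the middle panel dorsal midbrain 3, at 299, lies below alar plate 3, at 453. Alar plate 1 has the highest meningeal sum, 174, at a Fzd10 level of 8.99.

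In the mouse annotation GENCODE M21 (build GRCm38) Fzd10 lies head to head with 5930412G12Rik, a long non-coding RNA gene on the opposite strand, and 150 bases separate them. The 5930412G12Rik level was 7.31, 7.32 and 3.60 RPKM in dorsal midbrain, 5.62, 5.01 and 5.42 in ventral midbrain, and 0.190, 0.409 and 0.162 in hindbrain. It was called higher in dorsal midbrain (1.10 ± 0.18, adjusted p = 0.00163), as Fzd10 was, and also in ventral midbrain (0.97 ± 0.18, adjusted p = 0.00327), where Fzd10 was not. In hindbrain it was lower (-1.96 ± 0.18, adjusted p = 2.8e-05). Whether counting used strand is not given in the sources used here.

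Fzd1, Fzd2 and Fzd7 form another branch of closely related receptors, and their levels differed in opposite ways in hindbrain. Fzd1 was lower there, at 12.8, 11 and 12.1 RPKM, and Fzd7 was higher, at 16.3, 10.5 and 11.5. For that contrast the bases upstream of each start are shown, as RefSeq gives them on GRCm38.p6. They cover chr5:4758217-4758466 on the minus strand for Fzd1 and chr1:59481897-59482146 on the plus strand for Fzd7, each the 250 bases before the annotated start, and no exon of GENCODE M21 lies in either. Capitals mark the core CTTTGA bound by the TCF/LEF partners of β-catenin and the box CCAAT, on either strand.
Fzd1: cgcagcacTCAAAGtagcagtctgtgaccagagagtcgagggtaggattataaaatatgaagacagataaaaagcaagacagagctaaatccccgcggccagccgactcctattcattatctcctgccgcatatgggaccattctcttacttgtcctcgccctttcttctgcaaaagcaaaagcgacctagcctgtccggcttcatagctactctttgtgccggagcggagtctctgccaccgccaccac
Fzd7: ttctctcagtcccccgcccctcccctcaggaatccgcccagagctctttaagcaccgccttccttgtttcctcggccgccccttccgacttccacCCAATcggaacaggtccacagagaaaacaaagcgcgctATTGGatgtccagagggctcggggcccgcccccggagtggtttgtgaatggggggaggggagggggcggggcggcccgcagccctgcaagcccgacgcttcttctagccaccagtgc

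The 2 stretches differ in make-up. That of Fzd1 has 51.2% G and C, 1 match to CTTTGA and none to CCAAT or to the GC box GGGCGG. That of Fzd7 has 65.2% G and C, 2 matches to CCAAT, 6 to GGGCGG and none to CTTTGA. Neither holds the homeodomain core TAATTA. Among the 32851 upstream stretches of that length in the table, 13.8% hold CTTTGA, 33.8% CCAAT, 32.7% GGGCGG and 4.84% TAATTA, each counted on both strands. A match is not a site in use, and these windows leave out everything farther from the start.

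Fzd1 was highest in alar plate, at 67.5, 75.5 and 38.2 RPKM. It followed at 46.5, 48.1 and 32.4 RPKM in forebrain and at 38.9, 37.7 and 48.6 in dorsal midbrain. Ventral midbrain had 22.9, 19.9 and 19.9 RPKM, below every library of these 3 regions and above every hindbrain library. Alar plate 1 and 2 stood above all others, whereas alar plate 3 fell among the forebrain and dorsal midbrain libraries.

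Against the other 4 regions Fzd1 was 3.46-fold lower in hindbrain (mean 12 ± 0.948 RPKM, n = 3, log2 difference -1.60 ± 0.17, limma adjusted p = 0.0001) and 2.07-fold higher in alar plate (60.4 ± 19.6, 1.14 ± 0.17, adjusted p = 0.00256). Both held in every alternative. It was also called higher in dorsal midbrain (0.55 ± 0.17, adjusted p = 0.0284) and lower in ventral midbrain (-0.65 ± 0.17, adjusted p = 0.0267). Each of these 2 calls was lost when any library of its own region was left out, with adjusted p of 0.0744 to 0.115 for dorsal midbrain and 0.0737 to 0.141 for ventral midbrain. The forebrain difference of 0.56 did not pass (adjusted p = 0.103), although its mean, 42.4 ± 8.65 RPKM, was close to the 41.7 ± 5.96 of dorsal midbrain. Kctd15, an inhibitor of neural crest formation, was the gene most like Fzd1 over the 15 libraries (r = 0.937), followed by Tfap2d (0.913) and Ntng2 (0.905).

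Fzd7, a receptor known from stem and progenitor cells, showed the hindbrain above all other regions. Beside the hindbrain values given above, ventral midbrain was at 6.33, 6.20 and 5.68 RPKM, alar plate at 4.47, 4.99 and 3.86, dorsal midbrain at 4.29, 4.35 and 2.22, and forebrain at 2.36, 4.03 and 3.79. Hindbrain 1 was the highest library, and the lowest hindbrain library still exceeded every library of the other regions. The hindbrain mean of 12.8 ± 3.10 RPKM was 2.92-fold that of the other 4 regions (1.38 ± 0.17, limma adjusted p = 0.000304), and the call was kept in every alternative.

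In dorsal midbrain Fzd7 was lower (-0.61 ± 0.17, adjusted p = 0.0171), a call lost when dorsal midbrain 3 alone was left out (-0.37, adjusted p = 0.0969). It was kept when alar plate 3 and forebrain 1 were left out with it (-0.44, adjusted p = 0.00868). In that fit 64.5% of all genes were called in dorsal midbrain, against 32% with all libraries. In forebrain the difference of -0.68 lay at the threshold (adjusted p = 0.0505). Ventral midbrain exceeded dorsal midbrain by 0.65 ± 0.22 (adjusted p = 0.0448), but that call was lost in 12 of 24 alternatives, with an adjusted p of up to 0.139 without dorsal midbrain 3. Hindbrain exceeded ventral midbrain, its neighbour in the order, by 0.94 ± 0.22 (adjusted p = 0.0264), and this was lost without any ventral midbrain library, hindbrain 1 or hindbrain 3, with adjusted p of up to 0.115, and with a pseudocount of 0.1 (0.054). Arhgef26, a guanine nucleotide exchange factor, had the profile most like that of Fzd7 (r = 0.931), then P2rx7 (0.928) and 3110035E14Rik (0.921).

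Fzd2, the remaining gene of this branch and a receptor for Wnt5a in several tissues, varied least of the members called across regions, 1.81-fold from alar plate to hindbrain. Alar plate had 20.2, 18.0 and 18.8 RPKM, dorsal midbrain 20.0, 16.6 and 12.4, and ventral midbrain 16.5, 14.9 and 15.5. Forebrain had 11.4, 11.2 and 10.7 RPKM and hindbrain 12.9, 8.95 and 9.68. The alar plate and ventral midbrain libraries all exceeded those of forebrain and hindbrain, and dorsal midbrain 3 overlapped hindbrain.

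The alar plate mean of Fzd2, 19.0 ± 1.11 RPKM, was higher than in the other 4 regions (0.51 ± 0.12, limma adjusted p = 0.0309). The call was lost without ventral midbrain 2 or 3, any alar plate library, forebrain 2 or 3, or hindbrain 3, with adjusted p of 0.0511 to 0.07. In hindbrain the mean of 10.5 ± 2.07 RPKM was lower (-0.51 ± 0.12, adjusted p = 0.0243), and this was lost without hindbrain 2 (0.189) or hindbrain 3 (0.164). No 2 neighbours in the order of regional levels differed by the test. The closest profiles were those of Nop14, a ribosome assembly factor (r = 0.954), Dleu2 (0.930) and Pou4f1 (0.918), and Nop14 itself moved only from 12 to 14.9 RPKM between its lowest and highest regional means.

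Fzd8, which pairs with Fzd5 in the family and is widely studied for its binding to Wnt proteins, had a profile near that of Fzd1. Alar plate had 9.63, 10.4 and 4.06 RPKM, dorsal midbrain 5.42, 4.5 and 4.0, and forebrain 3.45, 4.66 and 3.70. Ventral midbrain had 2.32, 2.65 and 2.10 RPKM and hindbrain 1.38, 2.16 and 2.19. As for Fzd1, alar plate 1 and 2 stood above all other libraries and alar plate 3 did not. Ventral midbrain and hindbrain overlapped and lay below the rest.

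The alar plate mean of Fzd8, 8.03 ± 3.46 RPKM, was 2.5-fold that of the other regions (1.07 ± 0.20, limma adjusted p = 0.00919), a call kept in every alternative and larger without the 3 libraries that stand apart (1.41). The hindbrain mean of 1.91 ± 0.458 RPKM was lower (-0.88 ± 0.20, adjusted p = 0.0198), but the call was lost without hindbrain 1 (0.117), hindbrain 2 (0.076) or hindbrain 3 (0.0746). Dorsal midbrain exceeded ventral midbrain by 0.74 ± 0.25 (adjusted p = 0.0484), a call lost in 15 of 24 alternatives, with adjusted p up to 0.174 without dorsal midbrain 1. Of all genes tested, Kctd15 (r = 0.951), Pou4f3 (0.915) and Fzd1 (0.895) were most like Fzd8. Kctd15 thus heads the lists of both receptors.

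Fzd5, the other member of that branch, which is needed in eye development, was at most 0.419 RPKM in all 15 libraries. It stood at 0.345, 0.419 and 0.272 RPKM in dorsal midbrain, from 28, 36 and 22 reads, and at 0.0725 to 0.183 elsewhere, from 5 to 17 reads. The dorsal midbrain libraries lay above all others, 2.66-fold on the means. With no filter on low values the dorsal midbrain difference was 0.25 ± 0.04 (limma adjusted p = 0.00117). The test across regions was also passed in that fit (adjusted p = 0.00464), where 24.8% of all genes passed it.

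Fzd3 and Fzd6 form the branch best known for planar polarity, Fzd3 for the routing of long axon tracts and Fzd6 for the orientation of hair follicles. Fzd3 was the most even member, 1.39-fold between its highest and lowest regional mean. It stood at 38.2, 35.1 and 39.0 RPKM in ventral midbrain, 35.6, 31.5 and 33.9 in dorsal midbrain, and 35.6, 30.9 and 32.5 in hindbrain. Forebrain had 34.1, 28.7 and 28.9 RPKM and alar plate 34.2, 32.1 and 14.8. All regions overlapped but for ventral midbrain, which lay above forebrain and alar plate.

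Alar plate 3 was the lowest library for Fzd3, and the test across regions was passed once it, dorsal midbrain 3 and forebrain 1 were left out (limma adjusted p = 0.0127, when 70.7% of all genes passed). Fzd3 has the longest gene model of the tested members, 4.36 times the median, as judged from what 1 read is worth. In alar plate 3 longer genes were lower against alar plate 1 and 2: the median log2 difference was 0.56 over the 3422 shortest genes and -0.55 over the 3422 longest. The same difference was -1.11 for Fzd3, -0.88 for Fzd1 (1.52 times the median length) and -1.12 for Fzd8 (1.17 times), and 1.26 for the shorter Fzd9 (0.75 times). The median was -0.14 over the 3422 genes just shorter than the longest class, which holds Fzd8, Fzd10, Fzd2 and Fzd6. Of these, Fzd10, at 1.05 times the median length, was 0.66 higher, while Fzd2 (1.26 times) and Fzd6 (1.44 times) differed by -0.01 and 0.01. Fzd7, at 1.67 times and thus among the longest, differed by -0.24. The order of the members' differences was not that of their lengths. The part of gene length in these values was not tested.

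Fzd6 was highest in ventral midbrain, where it made up a small part of the Frizzled sum and stood at 5.08, 5.17 and 4.52 RPKM. Dorsal midbrain had 2.59, 2.27 and 1.92 RPKM, alar plate 2.77, 1.42 and 2.05, forebrain 1.44, 1.93 and 2.20, and hindbrain 2.18, 2.07 and 2.09. The ventral midbrain libraries lay above all 12 others, and the other 4 regions overlapped. Against their mean the ventral midbrain mean of 4.92 ± 0.354 RPKM was 2.37-fold higher (0.95 ± 0.12, limma adjusted p = 0.000195). It exceeded each single region by 0.86 to 1.06 (adjusted p = 0.000765 to 0.00386), and these 5 calls were kept in every alternative in which Fzd6 passed the filter.

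Most like Fzd6 over the 15 libraries were Dlc1, a GTPase-activating protein (r = 0.972), Cthrc1, a secreted protein that binds Frizzled and Ror2 (0.965), and Mboat1 (0.940). Cthrc1 was at 31.4, 24.8 and 25.2 RPKM in ventral midbrain and at 2.35 to 10.7 elsewhere. The floor plate and Th neurons lie in this region, and which cells carry Fzd6 was not measured.

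Fzd9, whose human counterpart lies in the interval deleted in Williams syndrome, had its lowest level where Fzd10 had its highest. Dorsal midbrain had 1.80, 1.92 and 2.78 RPKM. Ventral midbrain had 4.62, 6.56 and 5.09 RPKM, hindbrain 5.94, 4.4 and 4.84, and forebrain 5.29, 4.0 and 4.1. Alar plate was split, at 3.35 and 2.47 RPKM in alar plate 1 and 2 and 8.32 in alar plate 3, the highest library of all. The dorsal midbrain libraries lay below those of ventral midbrain, hindbrain and forebrain and overlapped alar plate.

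Across the regions Fzd9 missed the threshold (adjusted p = 0.0616), and it passed without alar plate 2 (0.0248) or alar plate 3 (0.00197). Of all genes 37.9% passed without alar plate 2 and 56.7% without alar plate 3, against 33.7% with all libraries. In dorsal midbrain the Fzd9 mean of 2.17 ± 0.537 RPKM was 2.27-fold lower than in the other 4 regions (-0.87 ± 0.22, limma adjusted p = 0.0121). That call was lost without dorsal midbrain 1 (0.0881) or dorsal midbrain 2 (0.0724).

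Fzd4, the receptor for Norrin in vessels of the retina and of the brain, was low throughout, from 0.232 to 1.81 RPKM and 9 to 84 reads. Dorsal midbrain had 1.10, 1.81 and 0.687 RPKM, and dorsal midbrain 3 overlapped the other regions, where the highest value was 0.853 in alar plate 1. With no filter the dorsal midbrain difference was 0.45 ± 0.14 (limma adjusted p = 0.0364), while the test across regions was not passed (0.163). The summed RPKM of 10 endothelial genes was 85, 86.8 and 62.7 in dorsal midbrain and 47.9 to 78.2 elsewhere, with 6 of 10 higher in dorsal midbrain, when 18.2% of all genes were higher there. Cdh5, 1 of these 6, was at 11.1 ± 2.74 RPKM there and at 5.78 to 8.10 in the means of the other regions. Cldn5, a tight-junction protein of brain vessels, was not 1 of the 6. It was at 13.6 ± 1.46 RPKM in dorsal midbrain and at 12.7 to 16.1 in the means of the other regions. The part of vessel content in the Fzd4 values was not tested.

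Counted by region, the calls among the 8 tested members stood beside those of all genes as follows. Ventral midbrain had 2 of 8 called when 10.6% of all genes were, with Fzd6 higher and Fzd1 lower. Dorsal midbrain had 4 of 8 called against 32% of all genes, and there Fzd1 and Fzd10 were higher and Fzd7 and Fzd9 lower. Alar plate had 3 of 8 against 4.66%, all higher (Fzd1, Fzd2 and Fzd8), when 1.24% of all genes were higher there. In hindbrain 5 of 8 were called against 6.3%, Fzd7 higher and Fzd1, Fzd2, Fzd8 and Fzd10 lower. Forebrain had 0 of 8 against 2.92%. In forebrain limma gave 4 members an unadjusted p under 0.05 (Fzd1, Fzd2, Fzd6 and Fzd7), and limma voom on recovered reads also called 0. The members' median difference was 0.19 in ventral midbrain, 0.16 in dorsal midbrain, 0.27 in alar plate, -0.22 in forebrain and -0.36 in hindbrain, and the median over all genes lay between -0.03 and 0.05.

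The 10 pairs of regions gave 29 of 80 calls. The midbrain pair, ventral against dorsal, differed in 6 of 8 members when 23.9% of all genes were called: Fzd6, Fzd7 and Fzd9 were higher ventrally and Fzd1, Fzd8 and Fzd10 dorsally. Dorsal midbrain and hindbrain also differed in 6 of 8 (32.1% of all genes), and alar plate and hindbrain in 5 of 8 (9.97%). Ventral midbrain differed from alar plate in 3 members (14.2%), from forebrain in 2 (8.33%) and from hindbrain in 2 (3.8%). Dorsal midbrain differed from forebrain in 2 (27.3%) and from alar plate in Fzd10 alone (1.67%), and forebrain differed from hindbrain in 2 (2.7%). Alar plate and forebrain differed in 0 of 8 (0.0946%) by limma, with an unadjusted p under 0.05 for Fzd2 and Fzd8 and 0 calls by limma voom. That pair gave 4 calls without the 3 libraries that stand apart, when 27.3% of all genes were called.

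Smo, the Hedgehog transducer and nearest relative of the Frizzleds, was highest in dorsal midbrain at 36.1, 35.1 and 24.5 RPKM, against 10.8 to 22.2 in the other libraries. The groups did not overlap, and the difference was 0.94 ± 0.15 (limma adjusted p = 0.00157).

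The partners of the receptors are given by list, from the main fit only. The alternatives were run for the receptors, so it is not known which partner calls would be lost. Of 11 co-receptors and accessory proteins, 10 were tested and 6 differed across regions, where 33.7% of all genes did. Gpc3, a cell surface proteoglycan that holds Wnt proteins, was at 15.1 ± 3.36 RPKM in dorsal midbrain and 1.20 ± 0.213 in ventral midbrain. Ror2, a Wnt5a receptor kinase, was also higher in dorsal midbrain (2.48 ± 1.16 RPKM, 1.02, limma adjusted p = 0.00342). Tspan12, which assists Fzd4, was higher in ventral midbrain (13.6 ± 0.738 RPKM, 0.74, adjusted p = 0.00546), and Gpc4 was lower in forebrain (1.25 ± 0.522 RPKM, -1.08, adjusted p = 0.0187). In dorsal midbrain 5 of the 10 were higher and 1 lower, when 32% of all genes were called there and 18.2% were higher. Lrp5 and Lrp6, the co-receptors for β-catenin signalling, did not pass the test across regions (adjusted p = 0.0835 and 0.236).

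Among regulators that remove Frizzled from the membrane and their inhibitors, 2 of 3 tested genes differed (33.7% of all genes). Znrf3, the ubiquitin ligase for Frizzled, was at 3.21 ± 0.297 RPKM in dorsal midbrain (0.58, limma adjusted p = 0.00355) and was lower in hindbrain (1.43 ± 0.383, -0.42, adjusted p = 0.0478). Lgr4, the R-spondin receptor that shields Frizzled from Znrf3, was highest in hindbrain, at 18.2 ± 2.88 RPKM (0.92, adjusted p = 0.0453). Of 10 cytoplasmic components 3 differed, a share near the 33.7% of all genes, and each was higher in dorsal midbrain, as 18.2% of all genes were. Ctnnb1, which encodes β-catenin, was at 590 ± 101 RPKM there (0.90, adjusted p = 0.000781), Axin1 at 18.7 ± 1.91 and Dvl2, which binds the Frizzled tail, at 17.0 ± 1.51.

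Planar polarity genes differed in 5 of 9 (33.7% of all genes). In ventral midbrain 3 were called, each higher, when 10.6% of all genes were called in either direction. Prickle1 was at 9.86 ± 0.593 RPKM there against 1.19 to 3.0 in the means of the other regions (2.02, limma adjusted p = 7.56e-07). Celsr1, an adhesion receptor that places Frizzled at cell junctions, was at 21.2 ± 0.334 RPKM (1.65, adjusted p = 0.00047), and Prickle2 at 12.2 ± 0.419 (0.81, adjusted p = 0.0173). Vangl1 was highest in hindbrain, at 3.04 ± 0.264 RPKM (0.74, adjusted p = 0.0105). The sum of the 9 genes in alar plate 3 was 75.7 RPKM against 179 and 172 in alar plate 1 and 2.

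Of 20 ligands, 19 Wnt genes and Norrin, 12 passed the filter and 9 differed across regions (33.7% of all genes). In ventral midbrain 6 were higher and 1 lower, when 10.6% of all genes were called there. In dorsal midbrain 5 were higher and 1 lower, when 32% of all genes were called and 18.2% were higher. Wnt1 was at 7.14 ± 2.10 RPKM in dorsal and 5.41 ± 0.958 in ventral midbrain and listed at 0 in all 3 hindbrain libraries. Wnt5a, a ligand linked to planar polarity, was at 39.0 ± 2.33 RPKM in ventral midbrain against 2.49 to 8.0 in the means of the other regions (2.93, limma adjusted p = 1.51e-05). In dorsal midbrain Wnt2b was at 5.10 ± 0.562 RPKM (2.02, adjusted p = 4.48e-06) and Wnt9a at 3.94 ± 0.249 (1.67, adjusted p = 1.01e-05).

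Secreted proteins that carry a Frizzled-type domain and bind Wnt proteins differed in 2 of 3 tested (33.7% of all genes). Frzb was highest in hindbrain, at 6.32 ± 3.61 RPKM (1.69, limma adjusted p = 0.00353). Sfrp2 was lowest in ventral midbrain, at 6.52 ± 0.918 RPKM (-1.38, adjusted p = 0.0155).

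The targets and nuclear partners of β-catenin differed in 7 of 8 tested (33.7% of all genes). In dorsal midbrain 6 were higher and 0 lower (18.2% of all genes were higher there), and in hindbrain 6 were lower and 0 higher (2.27% of all genes were lower there). Axin2 was at 37.5 ± 7.11 RPKM in dorsal midbrain (1.88, limma adjusted p = 0.000152) and 5.24 ± 0.319 in hindbrain (-1.38, adjusted p = 0.00149). Sp5 had 9.83 ± 5.21 and 0.292 ± 0.152 RPKM in these regions, and Lef1 47.0 ± 14 and 1.66 ± 0.538. Lef1 was also higher in alar plate (31.6 ± 14.7 RPKM, 1.62, adjusted p = 0.0116). Tcf7l2, which also marks the thalamus, ran from 1.85 RPKM in hindbrain 2 to 403 in forebrain 1, with 378 in dorsal midbrain 3 against 22.9 and 18.9 in its sister libraries. That library also had the lowest Fzd10 of its region.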

How the data were processed

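The deposited table gives 24264 genes in 15 samples as RPKM, which the authors computed. The aligner Bowtie and the build mm9 are named per the submitters' processing notes. No label or file header used here states the aligner's version or how strand, annotation and counting were set. Genes were matched by symbol, and the columns by sample title.

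RPKM steps gave whole reads for 16604 of 16612 genes above 0 in at least 10 libraries (99.95%, tolerance 0.02 to 0.15 reads). They served for depth and 1 alternative. Differences were tested with limma 3.58.1 in R 4.3.3 on log2(RPKM + 1), two-sided and with trend = TRUE. A single model of the 5 regions covered the 13745 genes that reached 1 RPKM in 3 or more libraries. P-values were adjusted by Benjamini-Hochberg over all genes within a comparison. The steps were tested on simulated data. For the limma fit these had changed genes in dorsal midbrain only, the same spread setting for all genes and no library that stands apart. They therefore do not give the error rate of the real libraries.

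All 10 receptors were described. Of each pathway list, up to 4 genes with the smallest adjusted p across regions were named, with Smo and, for each receptor called across regions, the 3 most correlated genes. Col1a1, Cdh5, Cldn5, Lrp5, Lrp6, the region markers and the neighbour of Fzd10 were added after their values were seen. The members and lists were chosen with earlier results of these data known. Of 10 receptors, 6 have an upstream sequence in the RefSeq table. Alternatives changed the pseudocount, filter, scaling, test, replicate block and libraries. Single calls were followed through them for the 10 receptors only, not for partners, ligands, targets or other named genes. The labels do not say that equal replicate numbers mark paired samples, and the fit without pairing was kept.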

Additional observations from a re-analysis of the deposited data

How the results depend on the processing

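Across the 5 regions 6 members differed. The count was 5 to 8 under the alternatives tried and 6 to 7 when any 1 library was left out, 7 without alar plate 2 or 3. The region comparisons gave 14 calls (11 without hindbrain 3 to 18 without alar plate 3) and the pairs 29 (22 without dorsal midbrain 1 to 41 without alar plate 3). Without alar plate 3, dorsal midbrain 3 and forebrain 1 together they rose to 25 and 49, which include all of the 14 and 29, when 70.7% of all genes differed across regions against 33.7%. Forebrain then gave 5 calls in place of 0, with Fzd1 higher and Fzd2, Fzd3, Fzd7 and Fzd10 lower. For forebrain 43.7% of all genes were called in that fit, against 2.92% with all libraries. With the replicate block the counts were 6, 16 and 31. With region means taken off, same-numbered libraries of 2 regions correlated above 0.1 in 18 of 30 pairs (median r 0.236). Libraries of different numbers did so in 17 of 60 pairs (median r -0.099). Of 15 libraries, 12 correlated best with their own number, a hint of pairing from the data only. Of 43 called differences of single members, 24 were kept in every alternative that gave a value, and none of the 43 changed direction. The block ended none of these calls. Quantile scaling moved the median of all genes by up to 0.13 in a library. Fits that left out a library of a compared region had 2 libraries in it. The planned quasi-likelihood count test was not run, since the table holds RPKM, and limma voom on recovered reads, chosen after seeing the data, took its place (6, 14 and 28). The loss of Fzd8 between ventral and dorsal midbrain under it, and the other losses, have a cause that was not tested. Depth limits Fzd4 and Fzd5, at 9 to 84 and 5 to 36 reads a library.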
